A study of Arabidopsis thaliana with 3 samples.

Results

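The 1607 pericentromeric peaks of UBP5-GFP that were called in replicate 2 without any replicate 1 peak under them lay mainly over repeated sequence, and few of them lay over protein-coding genes. Their summits fell in pseudogenes or transposon genes in 746 cases (46.4%), in sequence with no annotated gene in 720 (44.8%) and in protein-coding genes in 135 (8.40%). Of the 1607 peaks, 1442 (89.7%) had a second copy elsewhere in the nuclear genome over at least 50% of their length at 90% identity or more. The share was 50.9% in the pericentromeric replicate 2 peaks that overlapped a replicate 1 peak. It was 48.5% in the replicate 2 only peaks outside the pericentromeres, and it was not worked out for pericentromeric sequence as a whole. The peaks were chosen by the peak calls themselves, from the 10898 peaks of replicate 2 on chromosomes 1 to 5. A peak was kept where no base of it overlapped a replicate 1 peak and where its summit lay between 11.5 and 17.7 Mb of chromosome 1, 1.1 and 7.2 Mb of chromosome 2, 10.3 and 17.3 Mb of chromosome 3, 1.5 and 6.3 Mb of chromosome 4 or 9 and 16 Mb of chromosome 5. The annotation, the sequence under the peaks and their position within the windows were not part of that choice, whereas the fold enrichment and the q-value came from the same calls and are given as a description only.

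UBP5 is a ubiquitin-specific protease of Arabidopsis that removes ubiquitin from histone H2A. The chromatin came from seedlings collected 12 days after germination. They were ubp5 mutants of the Col-0 background that carried genomic UBP5 fused to eGFP under the UBP5 promoter, and no plants without GFP were precipitated. Cross-linking was done with EGS and formaldehyde, 2 replicates were precipitated with an antibody against GFP, and 1 input served both. UBP5-GFP binding thus cannot be told apart from precipitation background that the input does not show, and with 1 library a replicate, a difference between the replicates cannot be told apart from a difference between 2 libraries. The study lists far more reads for replicate 2 than for replicate 1, and the part of depth in the choice of peaks was not tested.

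Pericentromeres flank the centromeres. In Arabidopsis they are poor in genes and rich in transposons, whose remains are often annotated as pseudogenes, and they are kept silent by DNA methylation and methylation of histone H3 at lysine 9. The centromeres themselves consist of a short satellite repeated head to tail, and other tandem arrays, the ribosomal genes among them, border them. LTR retrotransposons, the most abundant transposons there, carry the same sequence at both of their ends, while DNA transposons such as Mutator (MuDR) and CACTA (En/Spm) elements move by a transposase. Near-identical copies are difficult to tell apart by short reads.

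How like each other such copies are is shown by the stretches below, which were read from the RefSeq copy of the TAIR10 chromosomes at the strongest peak of each of the 5 largest groups of related peaks, or, for the first pair, at the strongest of its group on chromosome 5. Capitals mark the bases that have no identical partner in the stretch printed under or over it. The first pair gives neighbouring 178-base units of an array on chromosome 5, at a peak of 2.50-fold enrichment, which matched at 150 of 178 positions.
Chromosome 5 array, unit at the summit, chr5:11929446-11929623, plus strand: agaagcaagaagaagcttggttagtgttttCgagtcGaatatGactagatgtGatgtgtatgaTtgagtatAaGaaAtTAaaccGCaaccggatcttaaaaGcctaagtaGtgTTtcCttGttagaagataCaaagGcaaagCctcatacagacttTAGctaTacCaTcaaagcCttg
Chromosome 5 array, next unit, chr5:11929624-11929801, plus strand: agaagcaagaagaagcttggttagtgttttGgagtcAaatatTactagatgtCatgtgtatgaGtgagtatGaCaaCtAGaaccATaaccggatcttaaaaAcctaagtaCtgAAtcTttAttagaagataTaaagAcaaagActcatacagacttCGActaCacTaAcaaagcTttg
The second pair gives neighbouring 159-base units on chromosome 1, at a peak of 3.45-fold enrichment, which matched at 141 of 161 aligned positions.
Chromosome 1 array, unit at the summit, chr1:14729734-14729892, plus strand: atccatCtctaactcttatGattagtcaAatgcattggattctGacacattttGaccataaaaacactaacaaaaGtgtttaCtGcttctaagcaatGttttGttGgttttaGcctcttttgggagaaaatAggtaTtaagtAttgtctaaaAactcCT
Chromosome 1 array, next unit, chr1:14729893-14730051, plus strand: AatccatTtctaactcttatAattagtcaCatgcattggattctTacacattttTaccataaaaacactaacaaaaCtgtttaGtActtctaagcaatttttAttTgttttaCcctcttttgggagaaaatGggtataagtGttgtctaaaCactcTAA
The third pair gives 151 bases around the summit of the strongest peak of all (4.79-fold) and the next copy downstream on chromosome 3, which matched at 144 of 151 positions.
Chromosome 3 array, at the summit, chr3:13857249-13857399, plus strand: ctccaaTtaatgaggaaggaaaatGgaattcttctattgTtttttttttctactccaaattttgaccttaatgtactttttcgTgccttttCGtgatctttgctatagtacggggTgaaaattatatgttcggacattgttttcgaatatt
Chromosome 3 array, next copy, chr3:13857758-13857908, plus strand: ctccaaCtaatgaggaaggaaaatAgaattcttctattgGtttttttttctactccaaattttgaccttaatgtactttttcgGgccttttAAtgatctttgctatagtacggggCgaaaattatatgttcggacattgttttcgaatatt
The fourth pair comes from the array of ECA1 gametogenesis related genes on chromosome 5, at a peak of 3.13-fold enrichment, and differed at a single base.
Chromosome 5 gene array, at the summit, chr5:14332133-14332283, plus strand: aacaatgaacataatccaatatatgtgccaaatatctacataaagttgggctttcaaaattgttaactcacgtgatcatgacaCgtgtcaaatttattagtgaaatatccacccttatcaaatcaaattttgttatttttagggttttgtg
Chromosome 5 gene array, next copy, chr5:14334327-14334477, plus strand: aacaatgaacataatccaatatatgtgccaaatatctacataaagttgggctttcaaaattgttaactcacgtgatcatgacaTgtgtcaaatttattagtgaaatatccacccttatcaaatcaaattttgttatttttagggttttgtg
The fifth pair comes from a repeat scattered over all 5 chromosomes, and its 2 copies, on chromosomes 3 (3.57-fold) and 1 (3.04-fold), matched at 149 of 151 positions.
Dispersed repeat, strongest peak, chr3:15721416-15721566, plus strand: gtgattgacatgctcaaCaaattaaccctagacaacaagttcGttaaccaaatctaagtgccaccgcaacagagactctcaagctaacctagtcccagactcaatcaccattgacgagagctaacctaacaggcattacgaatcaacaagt
Dispersed repeat, peak on chromosome 1, chr1:15180131-15180281, minus strand: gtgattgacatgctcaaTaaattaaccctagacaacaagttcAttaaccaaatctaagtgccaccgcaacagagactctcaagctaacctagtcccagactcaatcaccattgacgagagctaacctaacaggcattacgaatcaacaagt

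Of all 10898 replicate 2 peaks, 2350 (21.6%) had no replicate 1 overlap. Inside the windows they were 1607 of 2713 peaks (59.2%) and outside them 743 of 8185 (9.08%). The rule fixed these counts and nothing is read from them. Replicate 1 had 10266 peaks on the same chromosomes, of which 1461 had their summit in the windows and 96 of those had no replicate 2 overlap. The background level against which peaks were called, worked out from the deposited values, was a pileup of 44.0 in replicate 1 and 122 in replicate 2 as scaled by the caller. At the background level, the lowest fold enrichment that replicate 1 could have called was 1.53.

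The nearest replicate 1 peak lay at a median of 8.59 kb (quartiles 2.67 and 23.9 kb), and only 61 of the 1607 peaks (3.80%) lay within 500 bp of a replicate 1 peak. Just inside the rule were a peak at chr2:4418708-4419002, 226 bp from a replicate 1 peak with 1.56-fold enrichment, and a peak at chr3:15719795-15721934, 286 bp away with 3.57-fold enrichment. Just outside it were window peaks at chr2:6425611-6425997 and chr4:4373756-4374264, with overlaps of 105 and 174 bp and fold enrichments of 1.54 and 1.46. The summit inside a window that lay closest to its edge was that of chr4:6299550-6299811, 0.356 kb inside with 1.65-fold enrichment. The closest outside among the replicate 2 peaks without a replicate 1 overlap, chr1:17718682-17719061, lay 19.0 kb outside with 1.58-fold enrichment. On both sides of these limits lay peaks of low enrichment, and the peak of 3.57-fold was the exception.

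Fold enrichment, the IP pileup at the summit over the local input level, ranged from 1.21 to 4.79 with a median of 1.69 (quartiles 1.52 and 2.03). It reached 2 in 442 peaks (27.5%) and 3 in 49. The median was 2.18 in the 1106 window peaks that replicate 1 shared and 1.58 in the 743 replicate 2 peaks without a replicate 1 overlap outside the windows. The −log10 q-value had a median of 11.9, with 37.8 in the shared window peaks and 7.60 outside. Peaks were 434 bp wide in the median (range 243 to 12968) and covered 1023 kb in all. By chromosome, the median fold enrichment was 1.84 on chromosome 1, 1.60 on chromosome 2, 1.76 on chromosome 3, 1.69 on chromosome 4 and 1.67 on chromosome 5.

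The input level behind each summit, relative to the background, was at the background itself in 842 of the 1607 peaks (52.4%) and over 2 times the background in 110 (6.85%), against 23.0% of the shared window peaks. The highest levels were 51.4, 25.1 and 14.3 times the background, at peaks of 1.29-, 1.75- and 1.78-fold enrichment in groups 4, 2 and 6 of the related peaks described further on. At its own input level, each peak could be set against the lowest fold enrichment that replicate 1 could have called there. The enrichment was at or above that limit in 1245 peaks (77.5%) and below it in the rest, where a peak of the same strength would have missed the threshold in replicate 1. Where both replicates called a peak, the fold enrichment of replicate 1 over that of replicate 2 had a median ratio of 1.25 outside the windows (n = 7442), 1.21 in the protein-coding genes of the windows (n = 520), 0.904 in their pseudogenes and transposon genes (n = 182) and 0.725 in their sequence without an annotated gene (n = 378). Replicate 1 was thus the higher in protein-coding genes and the lower in pseudogenes and sequence without an annotated gene, and the part of this difference in the choice of the 1607 peaks was not tested.

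**Figure D1:**
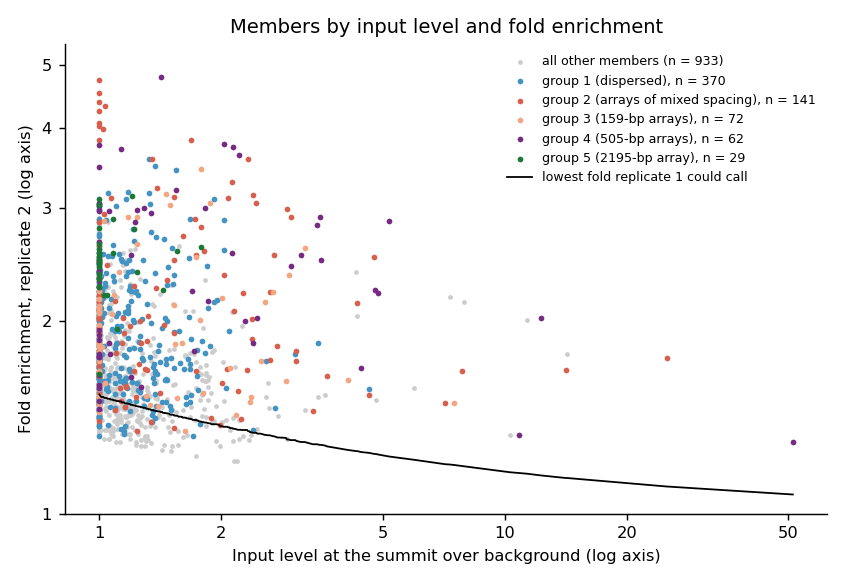
Fold enrichment in replicate 2 (y, log axis) against the input level at the summit over background (x, log axis), 1 point for each of the 1607 peaks (members), coloured by sequence group. The line is the lowest fold enrichment that replicate 1 could have called at that level; 1245 points lie on or over it, and the highest points belong to groups 2 and 4.

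The peaks were densest in the gene-poor part of the windows. In the 113 bins of 100 kb with a protein-coding cover under 10%, there were 87.0 peaks per Mb, in the 91 bins with a cover of 10 to 30% there were 43.1, and in the 107 bins with 30% or more there were 21.7. The shared window peaks, counted as replicate 2 peaks, did not follow that order, with 38.5, 24.4 and 42.0 per Mb. All replicate 1 peaks of the windows, shared or not, stood at 58.5, 30.1 and 49.2 per Mb in the same bins. Replicate 1 was thus also densest in the bins with a cover under 10%, but was lowest in the middle class. A high density in the most gene-poor bins was therefore not particular to the replicate 2 only peaks. Over the whole of the windows the density of the replicate 2 only peaks was 51.7 per Mb, from 35.9 on chromosome 3 to 62.5 on chromosome 4. The fullest bin, 3.2 to 3.3 Mb of chromosome 4, held 37 of the peaks, 1 shared peak and no protein-coding sequence. Most of the peaks had close neighbours: 1023 (63.7%) stood in 315 runs with gaps under 2 kb, of which 48 runs held 5 or more.

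**Figure D2:**
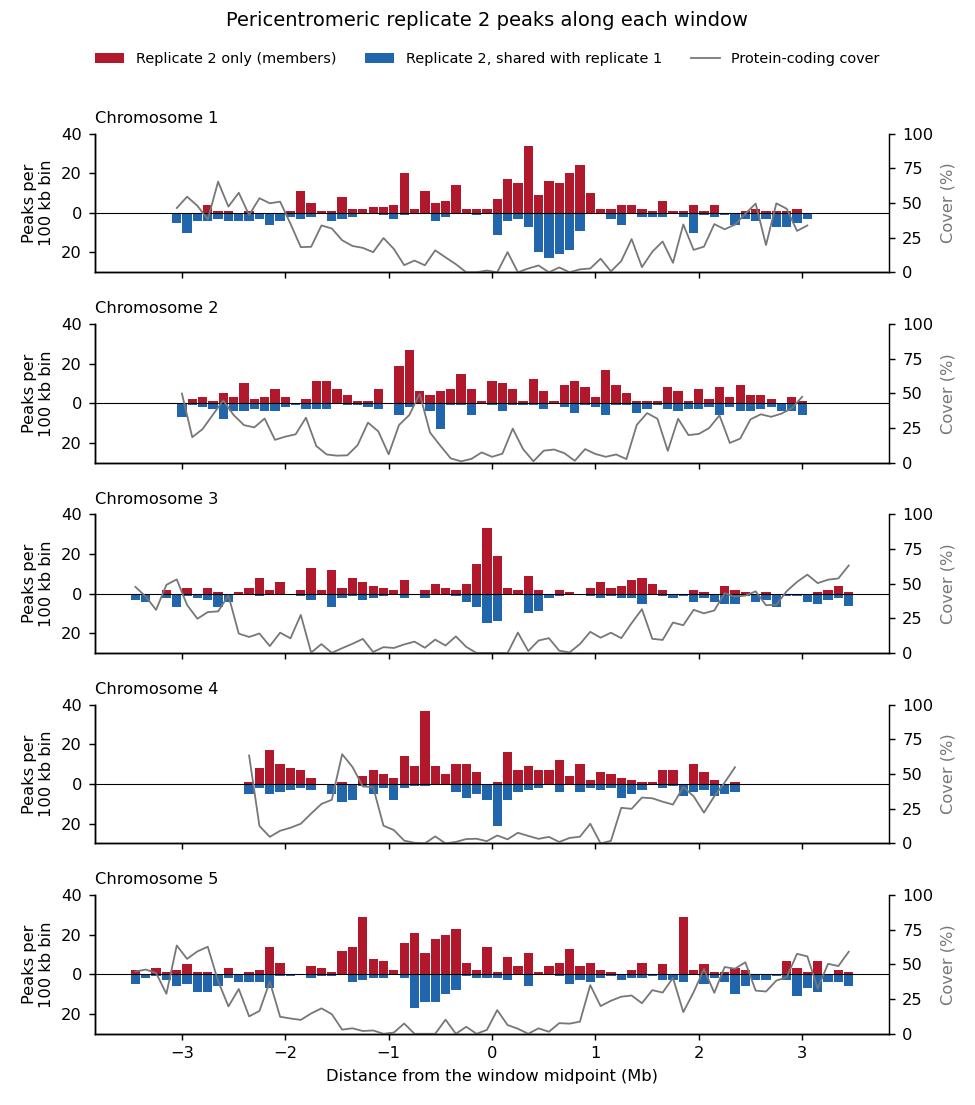
Number of peaks per 100 kb bin along each window (left axis), with the 1607 replicate 2 only peaks drawn upwards and the shared replicate 2 peaks downwards, against the distance from the window midpoint in Mb; the grey line is the protein-coding cover in percent (right axis). The upward bars are mostly tallest where the grey line is low, up to 37 peaks in a bin of chromosome 4. On chromosome 2 the tallest bar, 27 peaks, stands at a cover of 34.4%, in the copy of mitochondrial DNA.

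The longest run on each chromosome lay over a different kind of sequence. On chromosome 1 it held 15 peaks over 24.3 kb (chr1:14973438-14997696), all of the 159-bp arrays of group 3, at 1.49- to 2.35-fold enrichment. On chromosome 2 it held 24 peaks over 55.9 kb (chr2:3319144-3375050) in the copy of mitochondrial DNA, at 1.21- to 2.13-fold. On chromosome 3 it held 6 peaks over 7.67 kb (chr3:12079008-12086675), which began at the pseudogene AT3G30440, at 1.82- to 2.25-fold. On chromosome 4 it held 17 peaks over 22.8 kb (chr4:3234480-3257284), all of group 2, at 1.49- to 2.38-fold. On chromosome 5 it held 19 peaks over 28.9 kb (chr5:14325709-14354641), all of the ECA1 gene array, at 1.65- to 3.13-fold, with the highest median of the 5 runs (2.49).

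Read by annotation, the summits in pseudogenes or transposon genes (46.4%) compared with 27.7% of the window bases, 16.5% of the shared window summits and 23.7% of the summits outside the windows that replicate 1 did not share. Summits without an annotated gene (44.8%) compared with 49.3% of the window bases and 34.2% of the shared window summits, and no annotated gene touched any base of the peak in 620 cases (38.6%). Summits in protein-coding genes (8.40%) compared with 21.8% of the bases, 47.0% of the shared window summits and 63.0% outside. Within genes, 95 summits lay in coding exons, 25 in introns and 15 in UTRs. A further 6 lay in long or other non-coding RNA genes and none in a small RNA, tRNA or rRNA gene. The median fold enrichment was 1.63 in pseudogenes, 1.83 without an annotated gene and 1.58 in protein-coding genes.

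**Figure D3:**
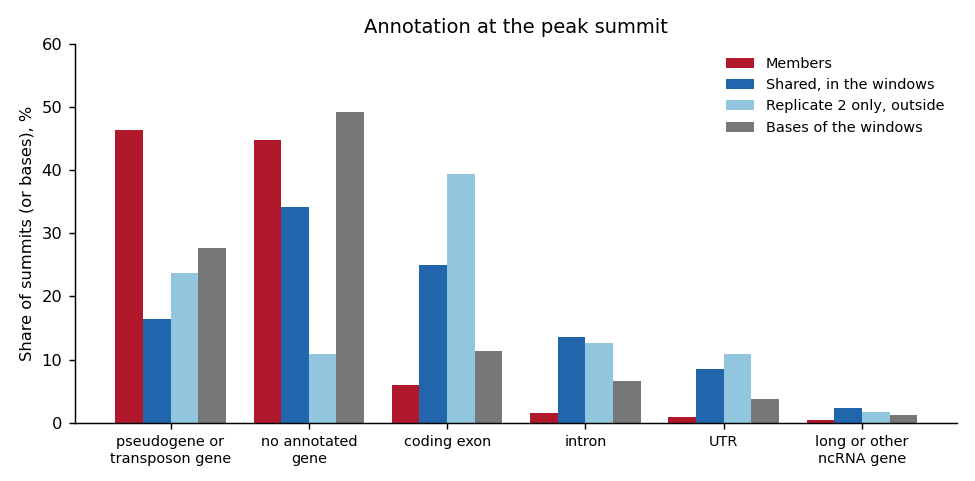
Share of peak summits (y, percent) by the annotation at the summit, for the 1607 replicate 2 only peaks of the windows (members), the 1106 shared peaks of the windows and the 743 replicate 2 only peaks outside, with the share of window bases in grey. The first bar is tallest over pseudogenes and transposon genes (46.4%) and low over coding exons, introns and UTRs.

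The summits in pseudogenes fell on 518 of the 3777 pseudogenes of the windows (13.7%), and 155 of these held more than 1 summit. Counted by any overlap of the peak instead of the summit, a peak described here touched 584 of the 3777 (15.5%) and a shared peak 233 (6.17%). The summits were spread along the pseudogenes from end to end, with 63 to 84 of the 750 pairs of summit and pseudogene in each of 10 equal parts, 84 in the first and 76 in the last. The annotation named few of the 518: 10 carried a note, none of which held a transposon word, and no summit lay in a gene whose product held a transposon word. The nearest to it was the protein-coding gene AT2G11035 (chr2:4416920-4419072), named as a reverse transcriptase zinc-binding protein and counted here among the protein-coding genes, which held a summit of 1.56-fold in a coding exon. The notes included a pseudogene of the Ulp1 protease family (AT3G32393, 1.54-fold), an F-box pseudogene (AT2G05300, 1.49-fold) and a pseudogene of a mitochondrial gene (AT2G07813, 1.53-fold).

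Kinds of transposon were therefore read from the proteins that a pseudogene's sequence still resembled, by aligning it to the 71 transposon proteins that the annotation names. Of the 3777 window pseudogenes, 688 matched such a protein, and 92 of these (13.4%) held a summit, beside 426 of the 3089 (13.8%) that matched none. Proteins that the annotation names as Mutator or MuDR were matched by 191, of which 45 (23.6%) held 61 of the summits. CACTA (En/Spm) proteins were matched by 62, of which 16 (25.8%) held 22. The shares were lower among pseudogenes matching copia polyproteins (5 of 67, 7.46%) and non-LTR reverse transcriptase (8 of 182, 4.40%). They were also lower with other proteins whose annotation names a retrotransposon (12 of 131, 9.16%) and with hAT transposase (6 of 55, 10.9%). Shared peaks touched 13 of the 191 Mutator-like (6.81%), 6 of the 62 CACTA-like (9.68%) and 16 of the 67 copia-like pseudogenes (23.9%), whereas the peaks described here touched 46 (24.1%), 16 (25.8%) and 6 (8.96%) of them. The matches were distant, with a median identity of 27.4% for Mutator and 45.4% for CACTA. No matched protein was named as gypsy or Athila, both LTR retrotransposons. The shares thus compare only the kinds that the 71 proteins name, and most window pseudogenes (3089 of 3777) matched none.

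Single pseudogenes of these kinds held some of the higher enrichments. AT4G09370 (chr4:5943640-5946070), which resembled the En/Spm-like protein AT2G06420, held a summit of 2.87-fold enrichment. Its neighbour AT4G09380 (chr4:5946583-5950874) resembled AT3G05850, which the annotation names as a MuDR family transposase. It held 2 summits, the higher of 2.89-fold. AT5G39060 (chr5:15636613-15638509) resembled DAYSLEEPER (AT3G42170), a domesticated hAT transposase, and held a summit of 2.31-fold. AT5G38383 (chr5:15351376-15360312) resembled a retrotransposon ORF-1 protein (AT2G14000) and held 5 summits of 1.39- to 2.08-fold, although the median peak there consisted of unique 100-base words throughout. Peaks in a single pseudogene could thus follow each other along several kb.

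The 10 pseudogenes with the most peaks, ties being ranked by the highest enrichment, held 4 or 5 each and none of them touched a shared peak. AT3G30668 (chr3:12215244-12223941, 8698 bp) held 5 at 1.41- to 2.87-fold enrichment, and the median peak there had no unique 100-base word. AT5G29075 (chr5:11136149-11146651, 10503 bp) held 5 at 1.66- to 2.58-fold. AT2G11050 (chr2:4379746-4385431, 5686 bp) held 5 at 1.43- to 1.69-fold, over nearly unique sequence (98.1% unique words in the median). Those with 4 peaks among these 10 were AT1G34740 (up to 2.76-fold), AT1G40117 (2.66), AT2G06430 (2.52), AT4G06574 (2.35), AT3G30802 (2.23) and AT3G30440 (2.22). Of the 10 with the most peaks, only AT5G38383 matched an annotated transposon protein.

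Protein-coding genes with a summit numbered 122, in 137 pairs of summit and gene. The summit lay within 500 bp after the annotated transcript start in 65 pairs (47.4%), against 459 of 526 (87.3%) for the shared window peaks in genes, and at a median distance of 519 bp against 323 bp. Of the 3347 protein-coding genes of the windows, 169 (5.05%) were touched by a peak described here and 549 (16.4%) by a shared peak. Of the 137 pairs, 17 involved peaks in tandem arrays and 49 peaks with a dispersed copy. The other 71 involved peaks without a second copy elsewhere in the nuclear genome. Mitochondrial DNA was not searched for copies. Its insertion on chromosome 2, described further on, held 19 of the 135 summits in protein-coding genes. The annotation calls 33 of the 122 genes uncharacterised.

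The 10 genes with the highest enrichment mostly belonged to groups of related peaks. AT1G39070 (chr1:14733525-14745983, uncharacterised) held a summit of 3.15-fold enrichment in a coding exon, and AT1G39060 (chr1:14701718-14703805, uncharacterised) held another of 2.90-fold in an intron, both within the 159-bp arrays. AT1G40090, also in these arrays, reached 2.38-fold. Another 5 were genes of the ECA1 gametogenesis related family in group 5, AT5G36380 (3.10-fold), AT5G36470 (2.61), AT5G36410 (2.55), AT5G36550 (2.37) and AT5G36390 (2.33). AT2G06570 (2.23-fold) carried the dispersed repeat of group 1 in an intron. AT1G33120, which encodes a ribosomal protein of the L6 family, had a summit of 2.04-fold in a coding exon, in a peak with no unique 100-base word, and was the only gene of the 10 outside these groups. The microRNA gene MIR5630a, on the opposite strand to AT1G33120, lay under the same peak.

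Among RNA genes of the windows, 12 of 62 tRNA genes and 1 of 65 microRNA genes were touched by a peak, and none of 2 rRNA, 8 snRNA or 24 snoRNA genes was. Shared peaks touched both rRNA genes, 1 tRNA gene and 7 microRNA genes. Ribosomal and satellite repeats that the annotation does not name could not be counted. All 12 tRNA genes lay in the copy of mitochondrial DNA on chromosome 2. Long non-coding RNA genes were touched in 13 of 618 cases.

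That copy, an insertion of mitochondrial sequence into the nucleus, ran from 3239038 to 3509765 on chromosome 2 (271 kb), with 99.6% of it covered by alignments of at least 95% identity to the mitochondrial genome. It held 45 of the 1607 peaks and 7 shared ones. The density was 166 per Mb, against 51.6 per Mb in the rest of the chromosome 2 window. The peaks were wide and weak there: the median width was 1395 bp against 437 bp elsewhere on chromosome 2, the median fold enrichment 1.50 against 1.62, and 38.3% of the stretch lay under a peak. The widest of all 1607 peaks, 12968 bp at chr2:3362083-3375050 with 2.13-fold enrichment, was among them. The input level ranged from 1.20 to 2.44 times the background with a median of 1.83, and 28 of the 45 peaks had no 100-base word found once in the nuclear, mitochondrial and plastid sequences together. The mitochondrial sequence used was that of TAIR10.1, which differs from that of TAIR10.

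The genes of the copy under a peak were 46 of its 94 protein-coding genes, 22 of 45 pseudogenes and 12 of 23 tRNA genes. The products named for 12 of the 46 were those of mitochondrial complexes and ribosomes, such as ATP synthase subunit 9 (AT2G07777), a NADH dehydrogenase (AT2G07785) and cytochrome c oxidase subunit II (AT2G07695), and 32 were uncharacterised. Reads from mitochondria and from the nuclear copy have the same sequence over most of its length, and their part in these 45 peaks was not tested. Without the copy, the share of summits in protein-coding genes was 7.43%.

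How much of each peak could hold uniquely placed reads was gauged by its 100-base words. In the median peak 64.2% of them occurred once in the genome (quartiles 11.9 and 99.1), against 100% in the median shared window peak and 100% outside the windows, and 90.8% of all words of the windows. All words were unique in 383 peaks (23.8%) and none in 336 (20.9%), against 52.7% and 6.69% of the shared window peaks. Outside the windows, 54.5% of the replicate 2 only peaks had unique words alone and 188 of 743 (25.3%) had none, so that peaks without a unique word were not confined to the windows. The methods state that reads with a single place of alignment were kept. The commands that the study lists for mapping and peak calling of UBP5-GFP pass the alignments on with no step that selects unique ones, so whether and how they were selected is not settled by these sources. The part of read placement in the 336 peaks was not tested. Among the 442 peaks with at least 2-fold enrichment the median was 19.6%.

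**Figure D4:**
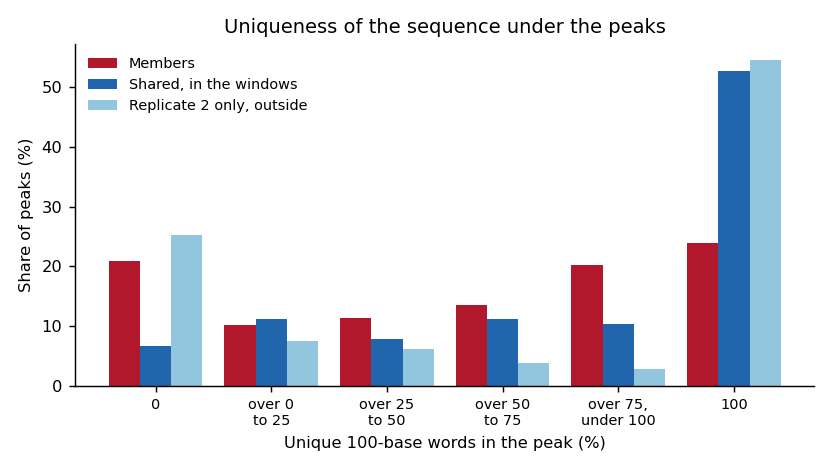
Share of peaks (y, percent) by the percentage of their 100-base words that occur once in the genome (x), for the 1607 replicate 2 only peaks of the windows (members), the shared peaks of the windows and the replicate 2 only peaks outside. The first set spreads over all classes, with 20.9% at 0 and 23.8% at 100, while 52.7% of the shared peaks stand at 100.

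Tandem repeats with a fixed shift covered at least 50% of the peak in 102 of the 1607 peaks (6.35%) and in 118 of the shared window peaks (10.7%). That measure reads only the peak itself, at shifts of up to 700 bp. By a wider definition, chosen after seeing the data, the 1607 peaks fell into 368 in tandem arrays (22.9%), with 4 or more copies of the summit on the same strand within 5 kb, 1076 with a dispersed copy only (67.0%) and 163 with neither (10.1%). The shared window peaks had 22.2%, 28.9% and 48.9%, and the replicate 2 only peaks outside the windows 1.88%, 46.8% and 51.3%. By neither definition did the 1607 peaks have the clearly larger share in arrays, while their share with dispersed copies was 67.0% against 28.9%. Median fold enrichment was 2.00 in arrays, 1.67 with dispersed copies and 1.51 with neither, and 2.63, 2.22 and 2.01 in the same classes of shared window peaks. Nearly all pseudogene summits were of the dispersed kind (679 of 746), while the summits without an annotated gene were split between arrays (342) and dispersed copies (346). In protein-coding genes 69 of 135 had neither. Copies were sought in nuclear sequence only, so matches in mitochondrial DNA to peaks of the chromosome 2 insertion were not counted. That insertion held 19 of the 135. The median peak had 21 other copies and the median shared window peak had none.

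Aligned to each other, 1160 of the 1607 peaks fell into 121 groups of at least 2, linked where 80% identity held over 70% of the shorter peak, and 447 stood alone. The 5 largest groups held 674 peaks (41.9%). Replicate 1 was not without peaks in them: 474 of the 1106 shared window peaks (42.9%) had the sequence of a group of the peaks described here. In these 474 the median ratio of replicate 1 to replicate 2 enrichment was 0.737, and replicate 1 was the higher in 55 (11.6%).

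**Figure D5:**
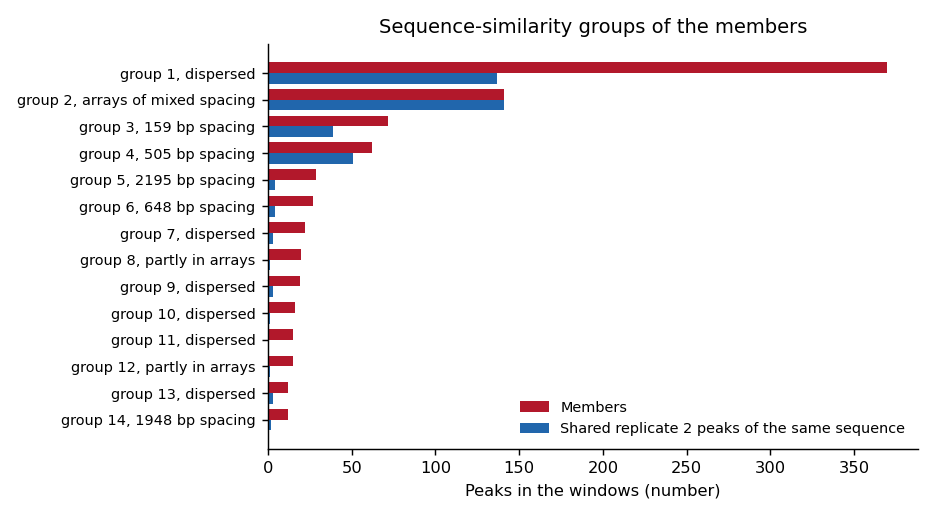
Number of peaks in the windows (x) for the 14 largest sequence groups (y), with the replicate 2 only peaks (members) in red and the shared replicate 2 peaks of the same sequence in blue. Group 1 has 370 red and 137 blue peaks, group 2 has 141 of each, and from group 5 on the blue bars hold at most 4 peaks.

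Group 1, the dispersed repeat, held 370 peaks (23.0%), with 85 on chromosome 1, 57 on each of chromosomes 2 and 3, 95 on chromosome 4 and 76 on chromosome 5. None was in a tandem array. A copy on the same strand 1 to 15 kb away, the arrangement known of LTR retrotransposon ends, was found for 115 (31.1%). The share was 22.5% over all 1076 peaks with dispersed copies, group 1 included, and 37.8% (121 of 320) over the shared window peaks with dispersed copies. Fold enrichment had a median of 1.78 and a maximum of 3.57, at chr3:15719795-15721934. The summits lay in 138 pseudogenes in 198 cases and without an annotated gene in 170, and only 2 of those 198 matched an annotated transposon protein, so that the annotation used here does not name the element. The median peak had 42.5 other copies and 78.1% unique words. Replicate 1 had 206 peaks of the same sequence in the windows, all of which overlapped a replicate 2 peak.

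Group 2 held 141 peaks, 55 on chromosome 1, 37 on chromosome 4, 47 on chromosome 5 and 2 on chromosome 3. All 47 on chromosome 5 repeated every 178 bp within 2 bp, the known length of the Arabidopsis centromere satellite, over a span of 414 kb (chr5:11651293-12065275). On chromosome 1 the copies stood 497 bp apart in the median (chr1:15091401-15435418), and on chromosome 4 670 bp apart. Both were mixed in spacing. Within 2 bp of the most common value lay 11 of the 55 peaks on chromosome 1 (497 bp) and 4 of the 37 on chromosome 4 (178 bp). The group thus joined arrays of different spacing. Enrichment was highest on chromosome 1, with a median of 2.53 against 1.95 on chromosome 4 and 1.73 on chromosome 5. Of the 10 most enriched of all 1607 peaks, 9 belonged to the chromosome 1 array, at 3.83- to 4.75-fold, and 8 of these had an input level of 1 to 1.03 times the background. The strongest was chr1:15343449-15344176, with no unique 100-base word. The group had as many shared peaks (141), and replicate 1 had 249 peaks of the same sequence, 3 of them without a replicate 2 overlap.

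Group 3 held 72 peaks over tandem units of 159 bp, 67 of them on chromosome 1 (chr1:14681987-15023642) and 5 on chromosome 4. The median fold enrichment was 1.85 and the highest 3.45. The median summit had 61 copies within 5 kb, the most of the 5 largest groups, and a GC content of 32.1% against 40.7% over all 1607 peaks. Of the summits, 64 lay without an annotated gene and 8 in protein-coding genes. There were 39 shared peaks of the same sequence.

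Group 4 held 62 peaks over units of about 505 bp, 57 on chromosome 3 (chr3:13597572-14220148) and 5 on chromosome 5, none of them in an annotated gene. It had the second highest median enrichment of the 5 (2.36) and the strongest peak of all, 4.79-fold at chr3:13856885-13858186, where the input level was 1.42 times the background. It also held the peak with the largest −log10 q-value (314), chr3:13815286-13815619, whose enrichment of 2.86-fold stood on an input level of 5.18 times the background, and the peak with the highest input level (51.4). Shared peaks of the same sequence numbered 51.

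Group 5 held 29 peaks in a span of 52.1 kb on chromosome 5 (chr5:14325709-14377810), repeated every 2195 bp over the ECA1 gametogenesis related genes, with 6 summits in genes and 23 between them. Its median enrichment, 2.49, was the highest of the 5 groups, from 1.65 to 3.13, and its input level was at the background in the median. The median peak had no unique 100-base word, and 20 of the 29 had none at all. All 29 were at or above the lowest enrichment that replicate 1 could have called, and 4 shared peaks had the same sequence.

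Of the smaller groups, group 6 held 27 peaks on chromosome 5 over units of 648 bp, with a median enrichment of 1.79, and group 14 held 12 peaks on chromosome 4 over units of 1948 bp, with a median of 1.87. Groups 7 (22 peaks) and 9 (19 peaks) lay wholly in pseudogenes that matched no annotated transposon protein. Groups 15 and 16, with 10 peaks each, also lay wholly in pseudogenes. All 20 of their summits were in sequence that resembled proteins annotated as MuDR family transposase, 9 of 10 closest to AT1G06740 and 10 of 10 to AT3G05850. Shared peaks of the sequence of groups 7 to 14 numbered from 0 to 3 a group.

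The Telobox, a short telomere-like word that plant transcription factors with Polycomb ties bind, was searched as AAACCCTA on both strands within 100 bp of the summit. It was found at 82 of the 1607 summits (5.10%), at 14.2% of the shared window summits, and in 3.25% of all 153694 tiles of the same length in the windows. Of the 82, 48 were in tandem arrays, where the share was 13.0%, and 39 were in group 2 (27.7% of its peaks), 29 of them on chromosome 1. In pseudogenes the share was 1.21% and among dispersed copies 2.70%, both under that of the tiles. The GA repeat GAGAGAGA was found at 27 summits (1.68%), against 2.98% of the shared window summits and 2.35% of the tiles. The word and its surroundings at the strongest peak that held it, on chromosome 1, are given with the word in capitals.
Telobox word in group 2, chr1:15343834-15343903, plus strand: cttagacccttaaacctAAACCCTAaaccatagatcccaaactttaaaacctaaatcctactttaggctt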

How the data were processed

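ChIP-seq of UBP5-GFP was analysed from the peak lists of 2 IP replicates. Per the study's methods and labels, the authors filtered reads, aligned them to TAIR10 with Bowtie2 2.4.5, kept uniquely mapped reads (as the methods state, although the listed commands show no such step) and called peaks with MACS3 3.0.0 for each replicate against 1 input. The lists hold the fold enrichment as a ratio deposited by the authors, p-values and q-values deposited on a −log10 scale, the summit offset, and a deposited integer score that was not used. Read totals were not analysed here.

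The background level was the value that gave the most peaks' p-values within 0.01 from their fold enrichment (Poisson tail), which fitted 87.5% of the replicate 1 peaks and 83.6% of the replicate 2 peaks; elsewhere the input level was solved from both values. The lowest −log10 p-value in replicate 1, 3.43, set the lowest enrichment it could call. Annotation and sequence came from the RefSeq TAIR10.1 copy, whose nuclear chromosomes are those of TAIR10. Copies, groups and protein matches were found with BLAST+ 2.17.0 (protein matches at an E-value of 1e-10). Pseudogenes and genes with a transposon product formed 1 class; protein-coding genes took precedence at a summit.

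The peaks, lists and groups were chosen with earlier results of these data known. No test was made: the choice rests on the calls, peaks are not replicates, and each replicate is 1 library. Named were the 10 most enriched peaks, the widest, the largest q-value, the longest runs, the 10 pseudogenes with most peaks, the 10 most enriched protein-coding genes and the 5 largest groups; the examples by kind of transposon, the pseudogenes with a note, the peaks of highest input level, the fullest bin, AT2G11035, groups 6 to 16 and the mitochondrial genes were named after their values were seen. The alternatives are given with their effect under the processing section. Calculations were tested on simulated data.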

Additional observations from a re-analysis of the deposited data

How the results depend on the processing

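Of 76 recalculations, 37 stayed within the 95% interval of the value (binomial, counting error only, or 1.5 times for the number of peaks) and 39 did not; the cause was not tested unless the setting itself names it. With a q-value under 1e-05, 1e-20 and an enrichment of at least 2, respectively, the share without an annotated gene under the peak was 41.2, 56.8 and 55.4% (38.6% with all), the median enrichment 1.76, 2.25 and 2.32 (1.69), the share at or above the lowest enrichment callable in replicate 1 89.9, 100 and 100% (77.5%), the median of unique words 56.2, 26.8 and 19.6% (64.2%), and the share with a second copy 91.7, 99.0 and 99.8% (89.7%). Under the last 2 of these, 523 and 442 peaks were left, with 32.7 and 33.5% in pseudogenes or transposon genes, 3.06 and 3.17% in protein-coding genes, 10.9 and 8.82% in fixed-shift tandem repeats (6.35%) and 7.46 and 7.92% with the Telobox word; the median input level was 1.05 at 1e-20. As another choice of peaks, all replicate 2 only peaks in gene-poor 500 kb windows were taken, whether inside the windows of the rule or not. Of these, protein-coding genes took 5.77%, no annotated gene 42.5%, a second copy 91.3% and the median input level was 1.00202. Without the mitochondrial copy, 92.1% had a second copy. Counting any overlap of 1 bp gave 51.8% over pseudogenes or transposon genes and 10.1% over protein-coding genes. Words of 50 bases gave a median of 29.5% unique. A second copy at 98% identity was found for 51.8%, and over 90% of the peak for 87.4%. With the background level for every peak, 72.6% reached the lowest callable enrichment. The Telobox word lay anywhere in the peak in 12.8%. Counting local copies, an alternative chosen after seeing the data, put 22.9% in tandem arrays. No paired analysis was possible because 1 input served both IP replicates and no result comes from a test. The depth of the input in repeats and the TAIR10 assembly, which holds part of the centromeres, limit what could be called there.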
